A study of Homo sapiens with 12 samples.

Results

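The JUN and FOS genes encode the subunits of AP-1, a transcription factor that binds DNA as a pair of proteins joined by leucine zippers. On the array used here they are measured by 17 probe sets of 7 genes, out of 54675 probe sets in all. These are the probe sets that the platform annotation gives to JUN, JUNB, JUND, FOS, FOSB, FOSL1 or FOSL2 and to no other gene. JUN and JUND have 4 each, FOSL2 has 5, and the other genes have 1 each. A probe set was tested when its signal reached the median of the array on at least 3 of the 12 arrays, which left 16 of the 17. The probe set that did not pass was JUND 229117_s_at, with signals of 2.14 to 26.9, at or above the median on 2 arrays. FOSB 202768_at reached the median on 5 arrays, all of them after UV.

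SW13 is a human adrenal cortical carcinoma cell line without expression of BRG1 protein, the ATPase of SWI/SNF chromatin remodelling complexes that the gene SMARCA4 encodes. Stable lines carried the empty vector pREP7 (SW13+vector) or pREP7 with BRG1 isoform C (SW13+BRG1). Each line was irradiated with UV at 10 J/m2 or mock-treated and collected 6 h later, which gives 4 groups of 3 Affymetrix U133 Plus 2.0 arrays, numbered 1 to 3 in each group. The sample titles give these numbers as exp #1 to exp #3. Whether a number marks an experiment shared by the 4 groups was not stated. The methods name a single stable line for each construct, so an effect of BRG1 and any other difference between these lines cannot be told apart. The signals are MAS signal intensities, which were compared on the log2 scale for 1 probe set at a time and never between probe sets. Throughout, a probe set is called higher or lower, or is said to rise or fall, only where its adjusted p (limma, Benjamini-Hochberg over the 32622 tested probe sets) was under 0.05 and its fold change over 2. SE is the standard error of a log2 change.

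Array medians were 21.1 to 25.3. The arrays numbered 3 stood apart from those numbered 1 and 2 in each group, with medians of 21.1 to 22.4, and the ratio of the 3′ to the 5′ probe set of ACTB was 2.57 on array 3 of mock-treated SW13+vector cells against 1.21 to 1.62 on the other arrays. Results that rest on the arrays numbered 3 are given below with and without them. Of the 7 tested probe sets of SMARCA4 none was higher in mock-treated SW13+BRG1 cells and 1 was lower (log2 change -1.28), and after UV 1 was higher (2.20). The paper reports BRG1 protein in SW13+BRG1 cells by Western blot, without an effect of UV on it. Whether these probes match the introduced cDNA was not stated, so the lines are named as their labels name them, and directions between the lines follow those labels. Of 10 adrenal cortex markers 9 were on the array and 3 had a tested probe set (CYP17A1, MC2R and MRAP), while STAR, CYP11A1 and NR5A1 had none, and the summed signal of the list was 120.2 to 218 over all arrays. The summed signals of epithelial, mesenchymal and blood cell markers differed between the lines, whereas those of endothelial markers overlapped. Over 5 epithelial markers, of which 3 were tested (KRT8, KRT18 and EPCAM), the summed signal was 255 to 291 without and 269 to 312 with UV in SW13+vector cells, and 3269 to 5125 and 4430 to 6103 in SW13+BRG1 cells. Over 5 mesenchymal markers, of which VIM, COL1A1, DCN and LUM were tested, it was 716 to 758 and 862 to 930.1 against 7129 to 10780.5 and 9918 to 12681. Most of the epithelial sum was KRT18, with means of 188 and 3755 in the mock-treated lines, and most of the mesenchymal sum was VIM, with 288 and 7952. KRT8 and 1 of 4 tested probe sets of COL1A1 were also higher with BRG1, EPCAM and DCN were not called, and LUM was lower (log2 change -3.14 without and -3.69 with UV). Over 3 blood cell markers, of which PTPRC was tested, the summed signal was 145 to 369 and 193 to 318 against 35.7 to 63.4 and 46.3 to 54.6. Each tested probe set of PTPRC was lower with BRG1 (log2 changes of -5.21 to -3.41 in mock-treated cells). These probe sets lay below the median of every SW13+BRG1 array and passed the filter through SW13+vector arrays alone. That favours a lower call and leaves the sizes of the changes uncertain. Other probe sets of PTPRC did not pass the filter and were not tested. Over 3 endothelial markers, of which PECAM1 was tested, the summed signal was 58.2 to 132.9 over all arrays, and PECAM1 was not called between the lines. The part of these markers in the differences between the lines described below was not tested. In bulk RNA, fewer cells of a type and less RNA per cell cannot be told apart.

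JUN proteins pair with each other or with FOS proteins, whereas FOS proteins need a partner from another subfamily, so the makeup of AP-1 follows the supply of each subunit. Several of the genes are immediate early genes, transcribed within minutes of serum, stress or UV by factors that are already present and are activated by MAP kinases. JUN N-terminal kinases phosphorylate JUN in UV-irradiated cells, and JUN acts on its own promoter through sites related to the AP-1 consensus.

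The promoters of JUN, FOS and FOSB are shown because UV lowered JUN in SW13+BRG1 cells, on 2 probe sets, and raised FOS and FOSB in both lines. Each stretch is the 250 bases before the start site, read 5′ to 3′ on the strand of the gene, from RefSeq on GRCh38.p14, and the capitals mark matches to TGACATCA (a JUN-type AP-1 site) or to TGACG, the first bases of a cyclic AMP response element.
JUN (chr1:58784048-58784297, minus strand): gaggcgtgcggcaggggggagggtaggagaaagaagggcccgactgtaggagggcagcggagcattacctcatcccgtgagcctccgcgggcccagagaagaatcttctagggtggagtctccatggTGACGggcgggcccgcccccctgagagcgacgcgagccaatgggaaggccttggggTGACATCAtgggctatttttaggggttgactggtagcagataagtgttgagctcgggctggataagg
FOS (chr14:75278578-75278827, plus strand): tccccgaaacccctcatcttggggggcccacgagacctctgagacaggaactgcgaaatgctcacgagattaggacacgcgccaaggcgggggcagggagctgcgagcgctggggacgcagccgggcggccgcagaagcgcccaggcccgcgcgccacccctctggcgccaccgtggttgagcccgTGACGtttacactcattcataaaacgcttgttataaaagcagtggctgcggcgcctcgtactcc
FOSB (chr19:45467746-45467995, plus strand): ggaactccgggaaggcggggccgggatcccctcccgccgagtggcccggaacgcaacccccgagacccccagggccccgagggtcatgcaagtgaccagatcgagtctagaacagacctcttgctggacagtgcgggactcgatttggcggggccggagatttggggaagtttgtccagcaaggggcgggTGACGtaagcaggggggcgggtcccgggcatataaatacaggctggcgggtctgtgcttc

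Counted back from the start site, the JUN window held TGACATCA at positions -67 to -60 and TGACG at -123 to -119. FOS held TGACG at -64 to -60 and FOSB at -60 to -56. Of the 35116 RefSeq promoter windows of 300 bases, 2.61% held TGACATCA and 24.6% held TGACG on either strand, so the last is common. The full AP-1 consensus TGACTCA, found in 4.95% of windows, was found in the window of FOSL2, at positions 5 to 11 of the transcript, and in no other of these windows. JUND held the full element TGACGTCA (1.85% of windows) at -200 to -193, which holds TGACG on both strands. JUND also held TGACG on the opposite strand at -86 to -82, JUNB held it at -137 to -133, and FOSL2 held it at -66 to -62 and, on the opposite strand, at -201 to -197. The CArG box, the site of serum response factor, was found in 1.29% of windows and in none of these. Bases outside the windows of 300 bases were not searched. A CArG box further upstream of FOS or of another member would therefore not appear among these matches. These matches describe the letters of 1 window per gene, for 6 of the 7 genes, and no binding was measured.

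In mock-treated cells 6 of the 16 tested probe sets were higher and 1 was lower in SW13+BRG1 cells, relative to SW13+vector cells, against 7.69% and 4.3% of all tested probe sets. The 6 were all 4 of JUN and 2 of FOSL2, and the lower one was FOS. After UV 3 were higher, all of JUN, and 1 was lower, again FOS, against 7.68% and 5.97% of all. UV raised 3 of the 16 in SW13+vector cells (JUN 201465_s_at, FOS and FOSB) and lowered none, against 0.665% and 3.6% of all, and at an unadjusted p under 0.05 there were 8, all with higher signals after UV, against 23.3% of all. In SW13+BRG1 cells UV raised 2, FOS and FOSB, and lowered 3, of JUN and FOSL2, against 0.561% and 5.81% of all, and 10, in both directions, had an unadjusted p under 0.05, against 26.2% of all. FOSB had passed the filter on low signals through UV-treated arrays alone, which favours a rise, and without it 2 were raised in SW13+vector and 1 in SW13+BRG1 cells. The median log2 change over the 16 was 0.82 without and 0.56 with UV between the lines, 0.48 after UV in SW13+vector and -0.65 after UV in SW13+BRG1 cells, where the medians over all tested probe sets were 0.00, -0.06, -0.01 and -0.06. These comparisons share groups, and the probe sets of a gene are not independent.

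With the brightest probe set standing for each gene, 2 of the 7 genes were higher with BRG1 and 1 was lower in mock-treated cells, against 9.05% and 5.09% of the 13834 genes tested. After UV there was 1 in each direction, against 9.56% and 6.61%. UV raised 2 and lowered none in SW13+vector cells, against 0.528% and 3.93%, and raised 2 and lowered 1 in SW13+BRG1 cells, against 0.535% and 6.27%. In both lines the raised genes were FOS and FOSB, and the filter favours a rise of FOSB, as given above. The split of calls over all probe sets depends on the scaling. With a scaling to 18 hybridization controls, which moves the median over all probe sets to -0.21, -0.27 and -0.45 in the line comparison after UV and the UV comparisons in SW13+vector and SW13+BRG1 cells, 44.5% of the calls between the lines after UV were higher in place of 56.3%, and 4.99% of those after UV in SW13+vector cells in place of 15.6%. With quantile normalization 19.2% of the calls after UV in SW13+BRG1 cells were higher in place of 8.81%.

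**Figure D1:**
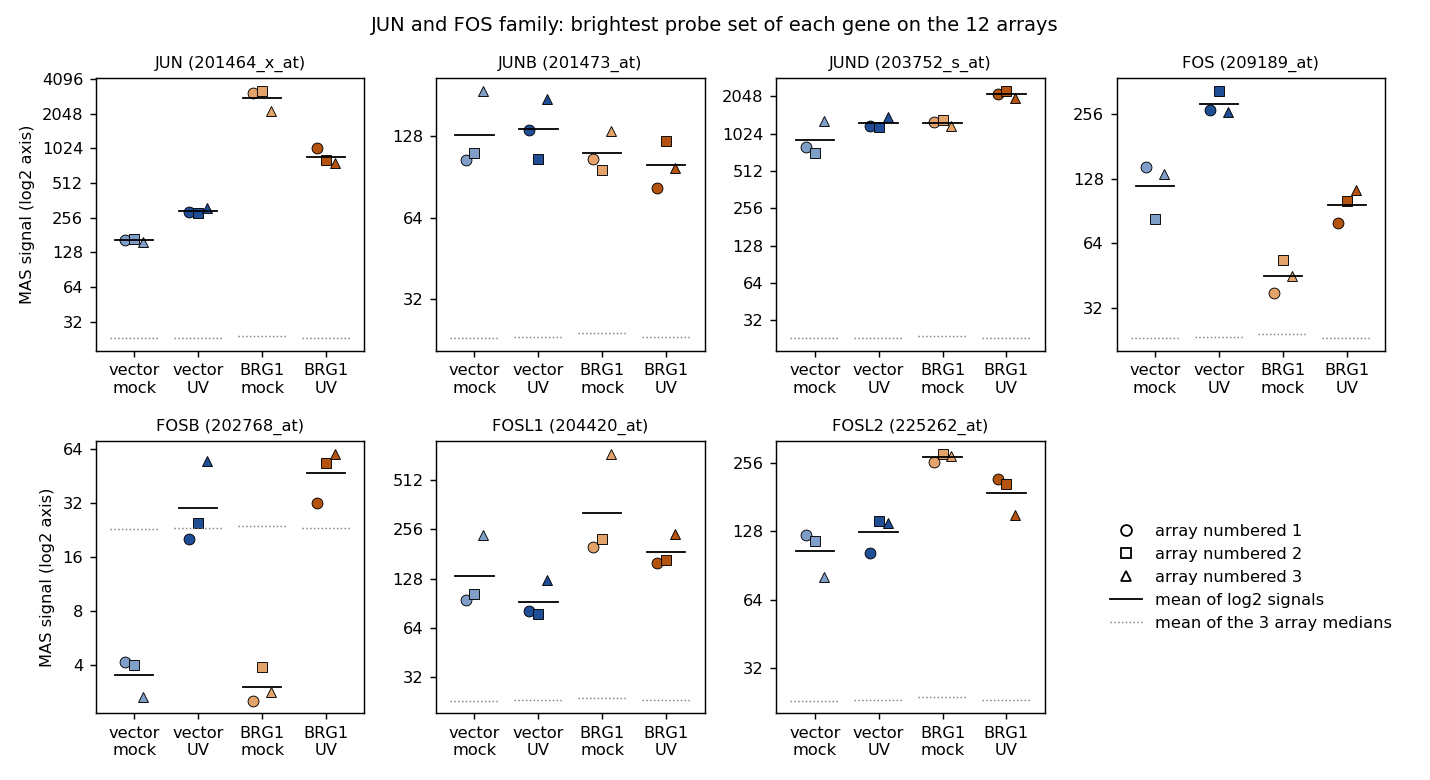
Signals of the brightest probe set of each JUN and FOS gene on the 12 arrays, on a log2 axis, by line and treatment; marker shapes give the array number, bars the mean of the log2 signals and dotted lines the mean of the 3 array medians. JUN is highest in mock-treated SW13+BRG1 cells (2143 to 3231), FOS in UV-treated SW13+vector cells (263 to 329), and FOSB lies below the array medians in both mock-treated groups (2.53 to 4.15).

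JUN, the partner common to most AP-1 pairs, had the largest differences between the lines of any member, and the effect of UV on it differed between them. On its brightest probe set, 201464_x_at, the signals on arrays 1 to 3 were 165, 167 and 159 in mock-treated SW13+vector cells, 289, 280.1 and 311 after UV, 3075, 3231 and 2143 in mock-treated SW13+BRG1 cells and 1040.3, 818 and 762 after UV. No groups overlapped, and their order was mock-treated vector, UV-treated vector, UV-treated BRG1 and mock-treated BRG1. Both lines differed in mock-treated cells (log2 change 4.08, SE 0.16, adjusted p = 2.23e-09) and less so after UV (1.56, adjusted p = 1.43e-05), and UV lowered the signal in SW13+BRG1 cells by 3.20-fold (adjusted p = 4.44e-05). The lowest neighbours in that order, the SW13+vector groups, differed by 0.84 (adjusted p = 0.00649), which is under 2-fold. The suffix x marks probe sets with probes that may match other transcripts.

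The other probe sets of JUN ranked the groups in the same way. On 201466_s_at the signals on arrays 1 to 3 were 49.9, 46.3 and 42.7 in mock-treated and 82.9, 46.0 and 73.2 in UV-treated SW13+vector cells, against 2253, 2156 and 1572 in mock-treated and 448, 399 and 313 in UV-treated SW13+BRG1 cells. Here the SW13+vector groups overlapped (log2 change 0.50, adjusted p = 0.213), and the fall after UV in SW13+BRG1 cells was 5.15-fold (adjusted p = 4.74e-05). On 201465_s_at the signals were 8.21, 6.77 and 4.87 in mock-treated SW13+vector cells, all below the median of the array, 65.4, 53.3 and 27.3 after UV, 485, 584 and 229.7 in mock-treated SW13+BRG1 cells and 211, 165 and 131 after UV. Between the lines it differed by 5.96 in mock-treated cells, and by 4.76 when signals under the 40th percentile of an array were set to it. It rose after UV in SW13+vector cells (log2 change 2.82, SE 0.40, adjusted p = 0.00122), by 1.63 with the same floor (adjusted p = 0.014). Its change after UV in SW13+BRG1 cells was -1.28 (adjusted p = 0.0528), which was called under 11 of 27 other settings.

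The last probe set, 213281_at, showed the arrays numbered 3 apart from the others. Its signals on arrays 1 to 3 were 30.2, 30.5 and 27.3 in mock-treated and 76.6, 63.9 and 29.2 in UV-treated SW13+vector cells, against 478, 445 and 84.2 in mock-treated and 200.2, 169 and 34.2 in UV-treated SW13+BRG1 cells. On the arrays numbered 1 and 2 the order of the groups was that of the other probe sets, whereas array 3 of UV-treated SW13+BRG1 cells lay within the range of UV-treated SW13+vector cells. With all arrays this probe set was called in mock-treated cells (log2 change 3.16, SE 0.71, adjusted p = 0.00568) and in no other comparison. Without the 4 arrays numbered 3 it was called between the lines after UV (1.39, adjusted p = 0.000104), after UV in SW13+vector (1.21, adjusted p = 0.00083) and in SW13+BRG1 cells (-1.33, adjusted p = 0.000276). Without array 3 of mock-treated SW13+BRG1 cells alone it was called in the last of these (-2.14, adjusted p = 0.0422). Over the 12 arrays the log2 signals of the JUN probe sets correlated with each other with Pearson's r of 0.825 to 0.99, given as a description since the arrays share lines and treatments.

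**Figure D2:**
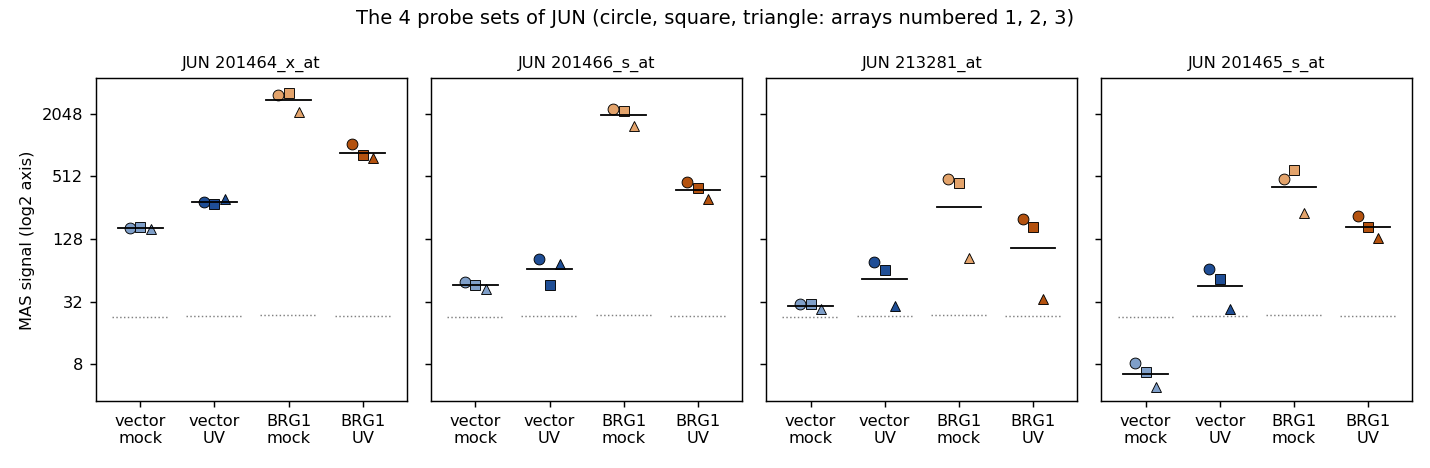
Signals of the 4 probe sets of JUN on the 12 arrays, on a common log2 axis, with array numbers as marker shapes, bars for the mean of the log2 signals and dotted lines for the mean of the array medians. On each probe set the mock-treated SW13+BRG1 arrays have the highest group mean, and on 213281_at the triangles of array 3 (84.2 and 34.2) lie far below arrays 1 and 2 in SW13+BRG1 cells.

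Whether UV acted differently in the lines was tested directly, as the UV effect in SW13+BRG1 minus that in SW13+vector cells. Of the 16 probe sets 3 passed, all lower and all of JUN, against 0.0123% of all tested probe sets higher and 0.0368% lower. The values were -2.52 (SE 0.23, adjusted p = 0.00199) on 201464_x_at, -2.87 (0.33, adjusted p = 0.00438) on 201466_s_at and -4.10 (0.57, adjusted p = 0.0213) on 201465_s_at. The last rests on mock signals of SW13+vector cells below the array medians, and with the 40th percentile as a floor it was -2.90 and did not pass (adjusted p = 0.0643). The fourth probe set gave -2.16 (SE 1.00, adjusted p = 1), and without the arrays numbered 3 it gave -2.53 and passed (adjusted p = 0.00164). With the mean over all 4 probe sets in place of the brightest, JUN gave -2.91 and did not pass (adjusted p = 0.0681). In the other 6 genes no probe set passed, and the median over the 16 was -0.41 against -0.03 over all probe sets.

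JUNB, which often restrains JUN on shared targets, passed in no comparison. Its signals on arrays 1 to 3 were 104, 111 and 188 in mock-treated and 135, 105 and 176 in UV-treated SW13+vector cells, against 106, 96.1 and 134 in mock-treated and 82.7, 123 and 97.9 in UV-treated SW13+BRG1 cells. All 4 groups overlapped, and array 3 was the highest in 3 of them. The log2 changes ran from -0.44 to 0.07 (SE 0.28, adjusted p = 0.29 to 0.923), and no unadjusted p was under 0.05.

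JUND, the JUN protein that is present in most resting cells, had its highest mean signal in UV-treated SW13+BRG1 cells on each tested probe set. On its brightest probe set, 203752_s_at, the signals on arrays 1 to 3 were 803, 718 and 1286 in mock-treated and 1186, 1157 and 1395 in UV-treated SW13+vector cells, against 1276, 1314 and 1178 in mock-treated and 2147, 2267 and 1993 in UV-treated SW13+BRG1 cells. The UV-treated SW13+BRG1 arrays lay above all the others, and the other 3 groups overlapped with each other. The log2 change between the lines after UV was 0.78 (SE 0.18, adjusted p = 0.00532) and that after UV in SW13+BRG1 cells 0.77 (adjusted p = 0.0107), both under 2-fold. In SW13+vector cells the change after UV was 0.46 (adjusted p = 0.13). On the dimmer probe sets 203751_x_at and 214326_x_at the lines overlapped after UV (log2 changes 0.54 and 0.21, adjusted p = 0.284 and 0.75). These probe sets gave 0.82 and 0.83 after UV in SW13+vector cells and were not called (adjusted p = 0.15 and 0.21). Without the arrays numbered 3 both were called there (1.02, adjusted p = 0.0131, and 1.11, adjusted p = 0.00752), as they were without array 3 of mock-treated SW13+vector cells alone (1.18 and 1.28). With all 4 probe sets averaged, among them 229117_s_at, which was below the filter, JUND gave 0.23 after UV in SW13+BRG1 cells (adjusted p = 0.692), while the 3 tested ones gave 0.77, 0.77 and 0.54 there. Between the lines after UV this average gave 0.40 (adjusted p = 0.376).

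FOS, the immediate early gene that gave its family the name, went opposite to JUN between the lines and rose after UV in both. The signals of 209189_at on arrays 1 to 3 were 146, 83.1 and 135 in mock-treated SW13+vector cells, 268, 329 and 263 after UV, 37.3, 53.5 and 45.1 in mock-treated SW13+BRG1 cells and 79.3, 101 and 113 after UV. The UV-treated SW13+vector arrays were the highest and the mock-treated SW13+BRG1 arrays the lowest, while UV-treated SW13+BRG1 cells overlapped with mock-treated SW13+vector cells, a pair that the design does not compare. FOS was lower in SW13+BRG1 cells without UV (log2 change -1.39, SE 0.25, adjusted p = 0.0013) and with UV (-1.56, adjusted p = 0.000497). After UV it rose 2.42-fold in SW13+vector cells (adjusted p = 0.0072) and 2.15-fold in SW13+BRG1 cells (adjusted p = 0.00996), and the difference of these effects was -0.17 (SE 0.36, adjusted p = 1). The rise in SW13+BRG1 cells is close to 2-fold: its log2 change was 0.72 with the scaling to hybridization controls (adjusted p = 0.0534), 0.89 with 16 added to each signal, 0.98 without array 1 of the mock-treated and 1.00 without array 3 of the UV-treated cells, and it was not called in these. The JUN minus FOS contrast was not tested, and over the 12 arrays their log2 signals had a Pearson's r of -0.75.

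FOSB, an early gene like FOS, had signals below the median of every mock-treated array and rose after UV in both lines. The signals of 202768_at on arrays 1 to 3 were 4.15, 3.99 and 2.67 in mock-treated and 20.2, 24.6 and 54.5 in UV-treated SW13+vector cells, against 2.53, 3.90 and 2.83 in mock-treated and 31.9, 53.7 and 60.3 in UV-treated SW13+BRG1 cells. Every UV-treated array lay above every mock-treated array, and within each treatment the lines overlapped. The log2 change was 3.09 in SW13+vector (SE 0.68, adjusted p = 0.0128) and 3.95 in SW13+BRG1 cells (adjusted p = 0.00193), with a difference of 0.86 (SE 0.96, adjusted p = 1). These sizes rest on mock signals near the background. With signals under the 40th percentile set to it the changes were 1.02 (adjusted p = 0.0984, not called) and 1.64 (adjusted p = 0.00799). The rise in SW13+vector cells was also not called without array 3 of the UV-treated cells (2.66, adjusted p = 0.075) or without all arrays numbered 3 (2.46, adjusted p = 0.0929).

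FOSL1, the FOS-related antigen known from growing and invasive tumour cells, had higher signals with BRG1 between arrays of the same number, with array 3 far from the others. The signals of 204420_at on arrays 1 to 3 were 95.4, 103 and 235.7 in mock-treated and 81.5, 77.8 and 126 in UV-treated SW13+vector cells, against 199, 222 and 743 in mock-treated and 160.2, 166 and 239 in UV-treated SW13+BRG1 cells. Array 3 was the highest in each group, and in mock-treated cells array 3 of SW13+vector lay above arrays 1 and 2 of SW13+BRG1, whereas after UV the lines did not overlap. The log2 change between the lines was 1.27 in mock-treated cells (SE 0.46, adjusted p = 0.0691) and 1.00 after UV (adjusted p = 0.144), neither called. With the array number as a block the first was called (1.27, adjusted p = 0.000882). Between arrays of the same number it was 1.06, 1.10 and 1.66 in mock-treated and 0.97, 1.10 and 0.93 in UV-treated cells. Without the arrays numbered 3 FOSL1 was called higher in SW13+BRG1 cells both without UV (1.08, adjusted p = 0.000272) and with UV (1.04, adjusted p = 0.000346). In mock-treated cells it was also called without array 3 of SW13+vector (1.69, adjusted p = 0.0183) or array 1 of SW13+BRG1 alone (1.62, adjusted p = 0.0428). After UV its change was -0.52 in SW13+vector and -0.79 in SW13+BRG1 cells (adjusted p = 0.57 and 0.315).

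FOSL2, the other FOS-related antigen, was higher in mock-treated SW13+BRG1 cells on 2 of its 5 probe sets. On the brightest, 225262_at, the signals on arrays 1 to 3 were 124, 116 and 80.4 in mock-treated and 103, 142 and 139 in UV-treated SW13+vector cells, against 259, 281 and 273 in mock-treated and 216, 206 and 151 in UV-treated SW13+BRG1 cells. The mock-treated SW13+BRG1 arrays lay above all the others, UV-treated SW13+BRG1 came next, and the SW13+vector groups overlapped. The log2 change between the lines was 1.37 in mock-treated cells (SE 0.22, adjusted p = 0.000487) and 0.58 after UV (adjusted p = 0.0743). UV changed it by 0.27 in SW13+vector and -0.52 in SW13+BRG1 cells, neither called (adjusted p = 0.511 and 0.14). The difference of these effects was -0.80 (SE 0.31, adjusted p = 0.905).

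On FOSL2 228188_at the signals on arrays 1 to 3 were 87.0, 70.5 and 65.0 in mock-treated and 90.8, 25.0 and 33.0 in UV-treated SW13+vector cells, against 218, 241 and 137 in mock-treated and 62.7, 60.8 and 42.7 in UV-treated SW13+BRG1 cells. Only the mock-treated SW13+BRG1 arrays stood apart, above all the others. This probe set was higher in mock-treated SW13+BRG1 cells (log2 change 1.39, SE 0.41, adjusted p = 0.0276) and fell 3.54-fold there after UV (adjusted p = 0.00951). The first of these calls was lost without array 2 or 3 of mock-treated SW13+vector cells or array 1 or 2 of mock-treated SW13+BRG1 cells (log2 changes 1.23 to 1.36, adjusted p = 0.0668 to 0.11), and without array 1 of UV-treated SW13+vector cells the change after UV there, -0.80, became -1.36 and was called (adjusted p = 0.0285). The remaining probe sets, 218880_at, 205409_at and 218881_s_at, had log2 changes of 0.54, 0.63 and 1.00 between the lines in mock-treated cells and -0.77, 0.03 and -1.10 after UV in SW13+BRG1 cells, and none was called in any comparison. With the mean over the 5 probe sets FOSL2 differed between the lines in mock-treated cells by 0.99 (adjusted p = 0.0253), under 2-fold.

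**Figure D3:**
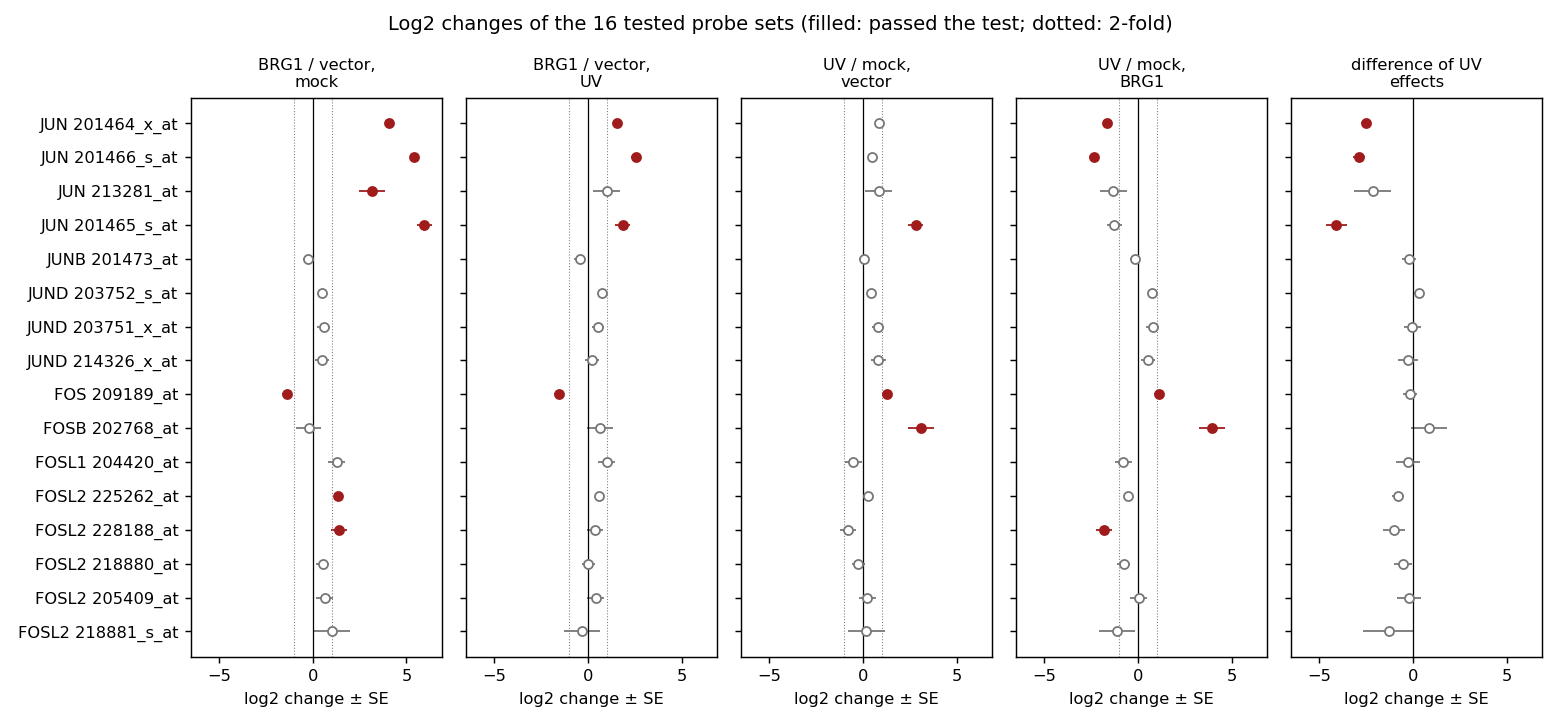
Log2 changes with their SE for the 16 tested probe sets in the 4 comparisons and for the difference of the UV effects (SW13+BRG1 minus SW13+vector); filled points passed the test and dotted lines mark 2-fold. JUN lies far right in the first panel (3.16 to 5.96, the highest being 201465_s_at, which gave 4.76 with the floor) and FOS left (-1.39), while after UV FOS and FOSB lie right in both lines and JUN lies left in SW13+BRG1 cells.

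The genes with the course most like a member over the 12 arrays, out of 13827, were named for the 4 members with a call. The nearest to JUN were IER3, an early response gene (r = 0.982), NCKAP5 (0.969) and NHS (0.961). FOSL2 shared NCKAP5 (0.951) with it and had AHR, the aryl hydrocarbon receptor (0.959), and PAQR8 (0.945). In SW13+vector cells the mean signals without and with UV were 0.44 and 1.25 for NCKAP5 and 3.07 and 5.35 for NHS. Those of AHR were 8.95 and 9.60, and NCKAP5 had 8.60 in UV-treated SW13+BRG1 cells. All of these lie below the array medians, so the likeness of these genes rests in part on signals near the background. FOS was nearest to PDCD2 (0.974), SRPRB and CKLF, and FOSB to RPL6 (0.974), CZIB and CAMTA1. Among the members themselves JUN and FOSL2 had an r of 0.936, the highest among them. These are Pearson correlations of log2 signals and describe 4 groups of arrays that share lines and treatments.

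Of the genes around AP-1, the dimer partners are related zipper proteins of the ATF, BATF, JDP and MAF families, of which 9 of 13 had a tested probe set. Counts over this and the following lists take each gene by its brightest probe set. In mock-treated cells MAFF, a small MAF protein, and BATF3 were lower in SW13+BRG1 cells and none was higher, against 5.09% and 9.05% of all genes. After UV ATF3, a stress-induced factor that pairs with JUN, was higher there (log2 change 3.51, SE 0.30, adjusted p = 2.5e-06), while ATF4 (-1.01) and BATF3 (-1.97) were lower. Of all genes 9.56% were higher and 6.61% lower after UV. BATF3 has 1 tested probe set, and its mean signals in SW13+BRG1 cells were 15.4 without and 15.5 with UV. These lie below the array medians, so BATF3 passed the filter mainly through SW13+vector arrays, which favours a lower call. UV raised ATF3 (3.55) and MAFF (1.98, SE 0.16) in SW13+BRG1 cells and none in SW13+vector cells, where 3 of the 9 had an unadjusted p under 0.05. Of all genes UV raised 0.535% in SW13+BRG1 and 0.528% in SW13+vector cells. The difference of the UV effects passed for none of the 9 and had an unadjusted p under 0.05 for 2. When p was adjusted over genes in place of probe sets, 2 passed. ATF3 passed on 2 of its 3 tested probe sets in both comparisons, and MAFF on 1 of 2 in mock-treated cells and on both after UV. The medians of the list stayed between -0.28 and 0.14 in the 5 comparisons.

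Upstream kinases and factors carry the signal to AP-1 genes, and 19 of 25 were tested. In mock-treated cells 2 were higher in SW13+BRG1 cells, RPS6KA3 (log2 change 1.38) and MAP3K20, the ribotoxic stress kinase (1.31), and MAPK9, a JUN N-terminal kinase, was lower (-1.50, SE 0.13, adjusted p = 2.81e-06). Of all genes 9.05% were higher and 5.09% lower. After UV these 2 were again higher and 3 were lower, against 9.56% and 6.61% of all genes. Among the lower ones were MAPK9 (-1.38) and MAP3K1, a kinase at the head of the JUN pathway (-1.15). MAP3K20 passed on 2 and 3 of its 7 tested probe sets without and with UV, RPS6KA3 on 1 of 2 and MAPK9 on 2 and 3 of 3. UV lowered 4 of the 19 in each line and raised none, where 3.93% and 6.27% of all genes were lowered. In SW13+vector cells these were MAP3K5 (-1.84), RPS6KA5 (-1.20), ELK4 (-1.14) and CREB1 (-1.04), and in SW13+BRG1 cells MAP3K1 (-1.49), MAP2K4 (-1.16), ELK4 (-1.11) and CREB1 (-1.09). ELK4 passed on 2 and 1 of its 6 tested probe sets in SW13+vector and SW13+BRG1 cells, CREB1 on 4 and 6 of 7, and MAP2K4 on 1 of 2. With quantile normalization 2 were lowered in each line. The medians were -0.11 to 0.18.

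Regulators of turnover, the phosphatases that switch off MAP kinases and the factors that degrade AP-1 proteins or their RNA, were all tested, 14 genes. In mock-treated cells 4 were higher in SW13+BRG1 cells, among them the phosphatase DUSP4 (log2 change 2.96) and ZFP36L1, which binds unstable RNAs (2.41), and 3 were lower, among them DUSP6, which dephosphorylates ERK (-5.85, SE 0.17, adjusted p = 3.92e-10), and DUSP2 (-3.42), against 9.05% and 5.09% of all genes. DUSP6 had a mean signal of 5815 ± 432.9 (SD, n = 3) in mock-treated SW13+vector and 101 ± 15.6 in mock-treated SW13+BRG1 cells. DUSP2 rests on 1 tested probe set (SE 1.08, adjusted p = 0.0397). Its mean signal was 13.0 in mock-treated SW13+BRG1 cells, and that of DUSP4 was 21.7 in mock-treated SW13+vector cells. Both lie below the medians of those arrays, so the sizes of these changes are uncertain. The mean of DUSP2 in SW13+BRG1 cells after UV was 6.60. It passed the filter mainly through SW13+vector arrays, which favours a lower call. After UV 3 were higher and 2 lower, against 9.56% and 6.61% of all. UV lowered 2 of the 14 in each line, against 3.93% and 6.27%. These were FBXW7, the ubiquitin ligase subunit that marks JUN for degradation, in SW13+vector (-1.69, adjusted p = 0.00608) and SW13+BRG1 cells (-2.39, adjusted p = 0.000421), on 1 and 3 of its 4 tested probe sets, together with DUSP6 (-1.36) in SW13+vector and DUSP16 (-1.86) in SW13+BRG1 cells, each on 2 probe sets, of 3 and 4 tested. The mean signals of FBXW7 after UV were 17.9 in SW13+vector and 16.3 in SW13+BRG1 cells. Both lie under the array medians, so the sizes of its changes are uncertain. With the scaling to hybridization controls 6 were lowered in SW13+BRG1 cells in place of 2.

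Known target genes of AP-1 were tested for 19 of 22. With BRG1 8 were higher and 4 were lower, both without UV (against 9.05% and 5.09% of all genes) and with UV (against 9.56% and 6.61%), and the medians were 0.66 and 0.82. In mock-treated cells the largest were CCL2, a chemokine (log2 change 8.74), CD44, an adhesion receptor (8.16), and PLAU, a protease that activates plasminogen (5.78), on the higher side and the matrix protease MMP10 (-6.49) on the lower. After UV they were CD44 (7.86), MMP10 (-6.75), CCL2 (6.46) and PLAU (4.56). In mock-treated SW13+vector cells CCL2, CD44 and PLAU had mean signals of 2.20, 13.2 and 12.8, below the array medians, so these sizes are uncertain. CXCL8 and LIF, also among the 8, had means of 7.44 and 10.1 there. After UV the means of all these targets in SW13+vector cells (10.7 to 18.4) were again below the medians. They passed the filter on low signals mainly through SW13+BRG1 arrays, which favours a higher call. The matrix proteases MMP1 (-1.72 in mock-treated cells) and MMP3 (-4.68), named after their values were seen, were also lower with BRG1. The mean signal of MMP3 in mock-treated SW13+BRG1 cells was 19.8, below the array medians there. The matrix protease MMP9 of the same list was not called (-0.51 in mock-treated cells, adjusted p = 0.34), and the remaining lower target was GJA1 (-1.61). UV raised HBEGF, a growth factor of the EGF family, in both lines (1.55 in SW13+vector, adjusted p = 0.0012, and 2.48 in SW13+BRG1 cells, adjusted p = 2.17e-05), on 1 and 2 of its 3 tested probe sets, CCL2 in SW13+vector cells (2.25) and CXCL8, the chemokine interleukin 8, in SW13+BRG1 cells (1.71, adjusted p = 0.0281), on 1 of its 2 tested probe sets. These are 2 targets in each line, against 0.528% of all genes in SW13+vector and 0.535% in SW13+BRG1 cells. The mean signals of CCL2 in SW13+vector cells were 2.20 without and 10.7 with UV, both below the array medians, and with 16 added to each signal or with the floor 1 target was raised there, CCL2 not being it. On its brightest probe set no target was lowered by UV, and the difference of the UV effects passed in limma for the brightest probe set of none of the targets, upstream genes or turnover genes, with 3, 1 and 4 of them at an unadjusted p under 0.05. Of the 11 tested probe sets of CD44, others than the brightest were called lower after UV (1 in SW13+vector and 2 in SW13+BRG1 cells), 1 was raised in SW13+vector cells, and 1 passed for the difference of the UV effects.

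**Figure D4:**
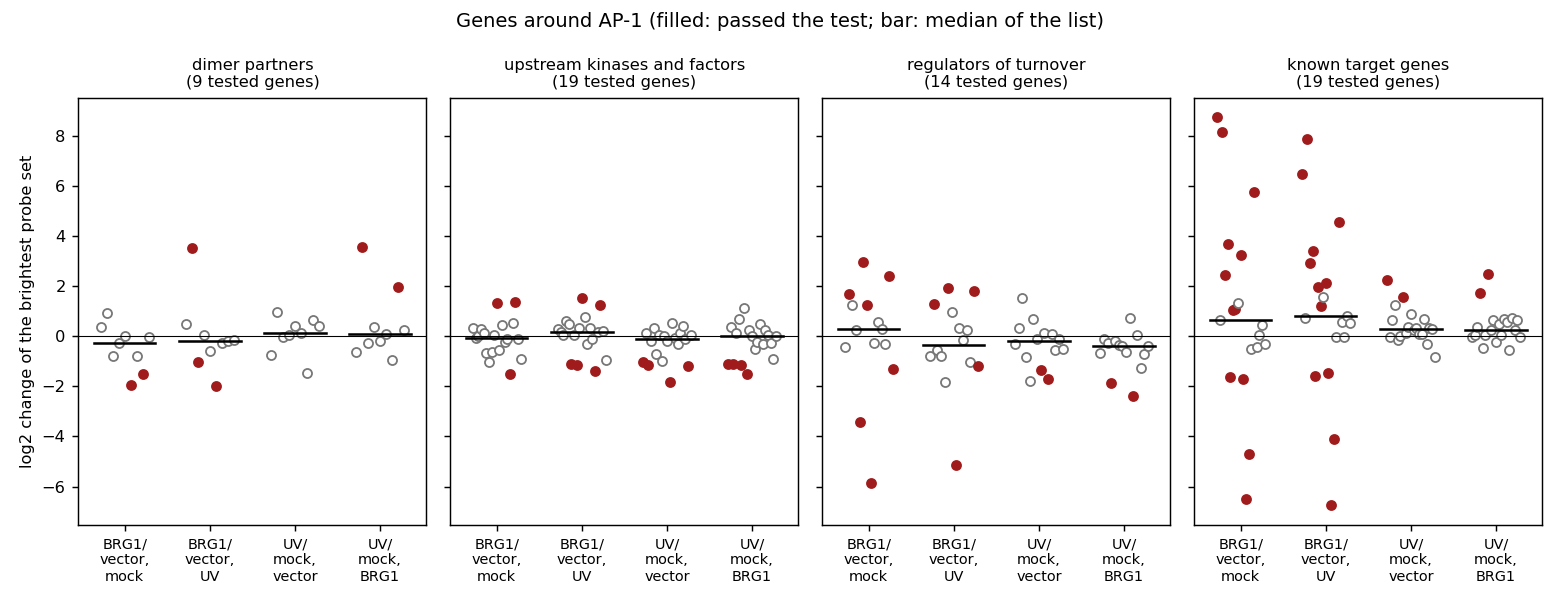
Log2 change of the brightest probe set of each tested gene in 4 lists around AP-1, in the 4 comparisons; filled points passed the test and bars are the medians of the lists. The target genes spread widest between the lines (-6.49 to 8.74 in mock-treated cells) around a median of 0.66, and their medians after UV are 0.27 and 0.26.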

How the data were processed

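Total RNA of SW13+vector and SW13+BRG1 cells, mock-treated or UV-treated, was hybridized to 12 arrays, 3 in each group. The authors computed a signal per probe set with MAS at its defaults and brought every array to a target mean of 125. The deposited values are these intensities, on a linear scale. For this report log2 was taken of the intensities as they stand. Control probe sets (62) were removed. Probe sets that reached the median of their array on at least 3 arrays, 32622 in all, entered a limma fit (version 3.58.1, R 4.3.3) of 4 group means over the 12 arrays, with a prior on the variance that depends on mean signal. Benjamini-Hochberg adjustment ran over all of them. For the difference of UV effects an adjusted p under 0.05 sufficed. The fit was tested on simulated data. The 3 samples of a group are described as independent biological replicates of 1 stable line, so p values measure the spread within lines, and with 3 arrays a group precision is low.

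The platform annotation gives 41097 probe sets a single gene, 1801 several and 11777 none, and 41043 symbols were updated by gene identifier. A gene was represented by its brightest probe set. Every probe set of the members is described. From the lists of related genes, up to 4 called genes with the largest change are named per comparison, and for members whose brightest probe set was called, the 3 genes with the highest correlation. Promoters are those of RefSeq on GRCh38.p14. The members and lists were chosen with earlier results of these data known. The alternatives were other filters and scalings, 16 added to signals, a floor on dim signals (the 40th percentile), a replicate block, other priors and adjustments, the methods' t-test, the mean over probe sets, and leaving out arrays.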

Additional observations from a re-analysis of the deposited data

Results flagged for a closer look

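The effect of UV on JUN differed between the lines. The difference of the log2 changes, SW13+BRG1 minus SW13+vector, passed the limma test of that difference on 3 probe sets, with -2.52 on 201464_x_at, -2.87 on 201466_s_at and -4.10 on 201465_s_at. On 201464_x_at and 201466_s_at it passed in each of the 23 and 22 alternatives run. On 201465_s_at it did not pass in 9 of 22 (adjusted p up to 0.109), among them the floor on dim signals (-2.90, adjusted p = 0.0643) and the prior without trend (adjusted p = 0.0927). No other probe set of the family passed.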

How the results depend on the processing

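No log2 change of a member that was called turned its sign. Of the 16 probe sets the methods' t-test (Welch, on linear signals, at an unadjusted p under 0.05 and over 2-fold) called 3 between the lines in mock-treated cells and 1 after UV in SW13+vector cells, in place of 7 and 3, and 4 and 5 in the other comparisons. The same test with Benjamini-Hochberg adjustment called 0 in each of the 4 comparisons, where Welch's test on log2 signals called 6, 4, 3 and 5 without adjustment. After UV in SW13+vector cells the count was 2 to 5 when each array was left out in turn, with 5 without array 3 of the mock-treated cells, and 5 without the 4 arrays numbered 3, a setting chosen after the data had been seen. With the replicate block (the experiment number of the sample titles as a term) the 5 counts were 8, 4, 3, 7 and 3 in place of 7, 4, 3, 5 and 3. The calls gained were FOSL1 between the lines in mock-treated cells (1.27, adjusted p = 0.000882) and JUN 213281_at (-1.32, adjusted p = 0.0306) and 201465_s_at (-1.28, adjusted p = 0.00208) after UV in SW13+BRG1 cells. Same-numbered arrays deviated together with correlations of 0.0152 to 0.292 over tested probe sets against -0.223 to 0.137 for other numbers. Arrays numbered 3 deviated together across the groups (0.179 to 0.292) and opposite to those numbered 1 and 2 (-0.223 to -0.0562). Arrays numbered 1 and 2 deviated together about as much as with their own number. Deviations were taken from the mean of the 3 arrays of a group, so they cancel out within it. The opposite sign and the likeness of the arrays numbered 1 and 2 therefore follow in part from the shared deviation of those numbered 3. The numbers were not taken as pairs. In the main fit the deviation shared by the arrays numbered 3 therefore counts as spread within groups. Of the 2095 single values over members and alternatives 1972 kept direction and call, and the cause of the other changes was not tested. Probe sets below the array median, such as those of FOSB in mock-treated cells, limit the size of a fold change, since the deposited signals there are near the background.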
